A study of Homo sapiens with 9 samples.

Results

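Protocadherins are the largest group of the cadherin superfamily, and 66 of the 56505 gene rows in the deposited tables belonged to it. The rows were taken by symbol: 73 symbols began with PCDH followed by capitals or digits, 6 of these carried a pseudogene name and 1 lay on the Y chromosome, and those 7 were left out. Gene clusters on chromosome 5 gave 54 of the 66 genes, with 16 PCDHA (alpha), 16 PCDHB (beta) and 22 PCDHG (gamma) genes, and 12 protocadherins stood outside the clusters. RNA was sequenced in bulk from 9 libraries of MDA-MB-231-D3H2LN, a human breast cancer cell line: 3 of JAG1 knockout clone 1, 3 of JAG1 knockout clone 2 and 3 of wild type. JAG1 encodes a ligand of Notch receptors. Both clones were made by transfecting Cas9 protein bound to guide RNAs for a pair of places in 1 JAG1 exon, and each is a line grown from a single cell, so a value seen in 1 clone may belong to that cell's descendants. All groups were grown in the same DMEM medium with 10% FBS, and no control line carrying Cas9 or passed through single-cell cloning is among the labels. Nothing in the labels says that the 3 libraries of a group came from separate cultures, so all p-values rest on a spread between libraries that may be no more than technical.

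JAG1 itself had 2130, 1699 and 1657 counts in clone 1, 1230, 1406 and 1190 counts in clone 2, and 5069, 3803 and 3592 counts in wild type. Its RNA was lower in both clones, by a log2 fold change of -1.05 (SE 0.18, adjusted p = 0.00312) in clone 1 and -1.55 (SE 0.18, adjusted p = 0.00013) in clone 2. Here and below, adjusted p-values come from edgeR's quasi-likelihood test with Benjamini-Hochberg adjustment over 16921 genes, and a gene was called at an adjusted p under 0.05. Total counts ran from 16890890 to 22456164 per library, and all protocadherins together took 1791 to 2724 of them, or 95.3 to 130 counts per 1000000 (CPM). Of the mesenchymal markers expected in this line, 8 of 8 (among them VIM, CD44 and AXL) were at 1 CPM or more in every library. Of 8 luminal epithelial markers, 5 (among them KRT19, EPCAM and GATA3) were also at 1 CPM or more in every library. The summed level of all 8 luminal markers was 144 to 346 CPM. Of 8 neuronal markers, 4 stayed under 1 CPM in every library and 2 (MAP2 and SYT1) were at 1 CPM or more in every library. The summed level of all 8 neuronal markers was 7.23 to 17.2 CPM. All 4 leukocyte markers stayed under 1 CPM in every library, with CD3E at 0 throughout and PTPRC at up to 0.437 CPM.

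Protocadherins are adhesion proteins of the cell surface that bind the same protein on a neighbouring cell. They are best known from neurons, where each cell uses its own choice of the clustered genes as a surface identity. In the alpha and gamma clusters every variable exon has its own promoter and is spliced to constant exons that all genes of the cluster share, whereas each beta gene is a single exon. Promoter choice is known to depend on CTCF and cohesin, which loop promoters to distant enhancers, and on DNA methylation of the promoters that stay silent. Cancer cells often carry methylated protocadherin promoters.

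Most genes of the family were neither on nor off throughout, and the genes on throughout were beta genes, a few gamma genes and PCDH1. A gene was counted as on in a library at 10 or more counts and as off at 2 or fewer. Of the 66 genes, 18 were on in all 9 libraries: 11 beta genes (PCDHB2, PCDHB5, PCDHB6, PCDHB8 to PCDHB14 and PCDHB16), 6 gamma genes (PCDHGB1, PCDHGB2, PCDHGA6, PCDHGA10, PCDHGB7 and PCDHGC3) and PCDH1. Another 9 were off in all 9 libraries, namely PCDHA9, PCDHA14, PCDHB1, PCDH8, PCDH10, PCDH11X, PCDH17, PCDH19 and PCDH20. The remaining 39 were low, or on in some libraries and not in others. No alpha gene was on in all 9.

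Each library had 29 to 31 genes on in clone 1, 21 to 25 in clone 2 and 28 to 30 in wild type. Counted over whole groups, 24 genes were on in every clone 1 library, 19 in every clone 2 library and 24 in every wild-type library. PCDH9 was the only one of the 66 genes that was on in every library of 1 group (wild type) and off in every library of both others. Calls of on and off at these depths rest on few reads, and 7 genes had no count in any library. Raw counts of all 66 genes are drawn in the heat map.

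**Figure D1:**
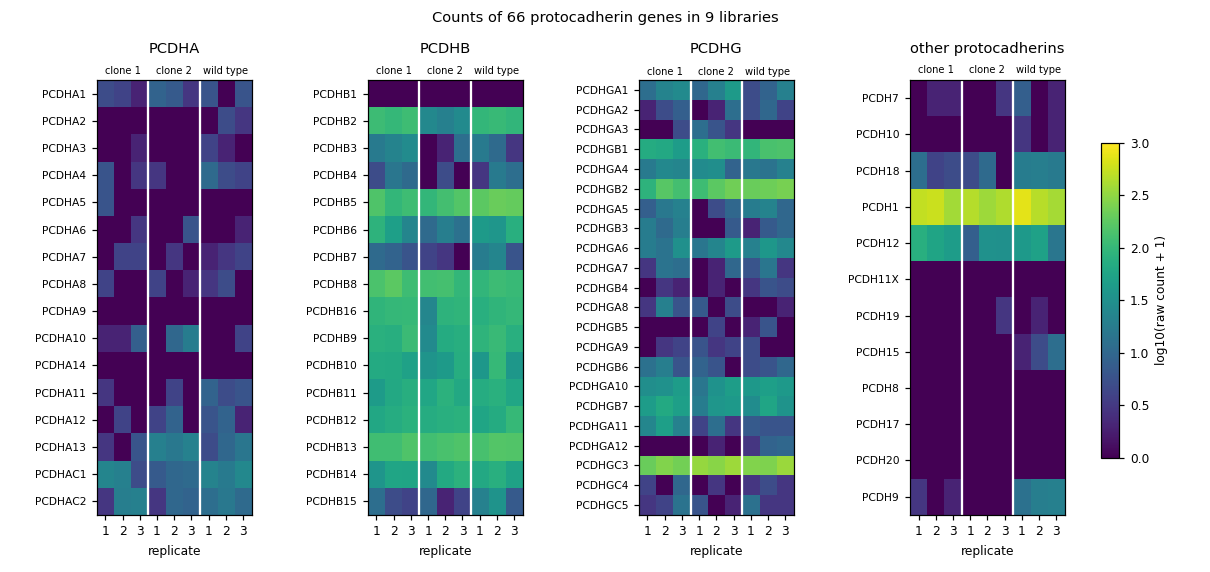
Heat map of log10(raw count + 1) for 66 protocadherin genes (rows, in the order of the deposited table) in 9 libraries (columns: replicates 1 to 3 of clone 1, clone 2 and wild type). PCDH1, PCDHGC3, PCDHGB2 and most beta genes are bright in all columns, while most alpha genes and most genes outside the clusters stay dark.

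Levels between genes were compared as CPM per kb of unshared exon, that is, exon bases that no other gene of the table overlaps. In wild type the order of levels began with PCDH1 at 4.32 ± 1.69, PCDHGC3 at 4.30 ± 1.07 and PCDHGB2 at 4.01 ± 0.56 CPM per kb (SD, n = 3), which lie within each other's spread. PCDHB5 at 3.08 ± 0.21 and PCDHGB1 at 2.87 ± 0.67 CPM per kb came next in wild type, followed by PCDHB8 at 1.92 ± 0.14. PCDH1 was also first in clone 1, at 4.30 ± 0.60 CPM per kb, and PCDHGC3 was first in clone 2, at 5.35 ± 1.02 CPM per kb. The order depended on the length used, since the full length of the deposited table counts the shared exons of gamma genes. By that length PCDH1 was first in all 3 groups, and PCDHGC3 had 3.20 ± 0.61 CPM per kb in clone 2, against 3.74 ± 0.96 for PCDH1. In wild type the order by full length was PCDH1 (4.32 ± 1.69), PCDHB5 (2.63 ± 0.18), PCDHGC3 (2.57 ± 0.64) and PCDHGB2 (2.18 ± 0.30 CPM per kb). By unshared exon, PCDHB2 held place 6 in clone 1 with 1.60 ± 0.25 CPM per kb and place 8 in wild type with 1.30 ± 0.035 CPM per kb, and was not among the first 9 in clone 2. The plot of levels per length shows these genes.

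**Figure D2:**
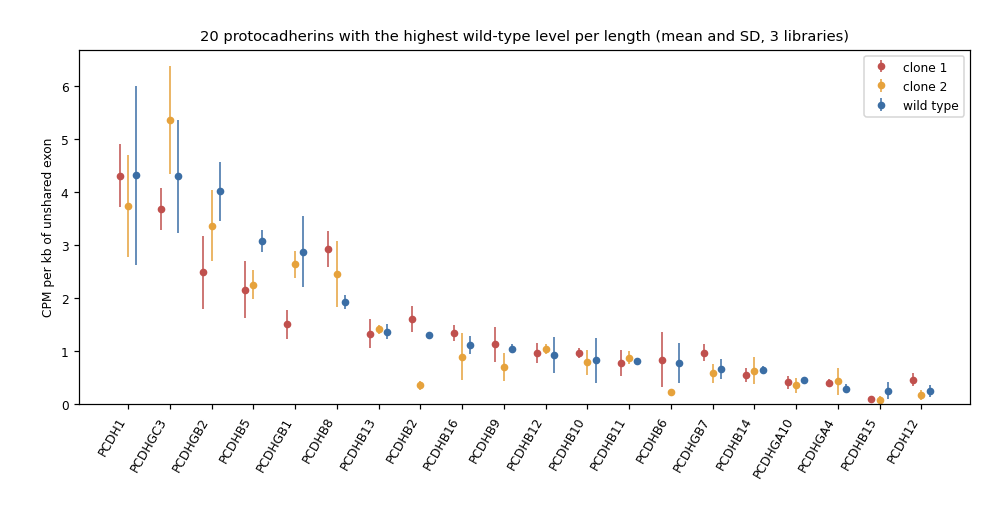
Mean and SD (3 libraries) of CPM per kb of unshared exon for the 20 protocadherins with the highest wild-type level, with clone 1, clone 2 and wild type side by side for each gene. PCDH1 and PCDHGC3 lead, at 4.32 and 4.30 in wild type, and the clone 2 point of PCDHB2 lies far below those of clone 1 and wild type.

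Of the 66 genes, 34 passed the filter on low counts and were tested: 3 alpha, 15 beta, 12 gamma and 4 others. The other 32 were not tested, and 25 of those had at least 1 count. In clone 1 against wild type, 2 of the 34 were called (5.88%), beside 5.51% of all tested genes, so the family's share was close to that of the transcriptome. PCDHGA11 was called higher (1.41% of all genes were) and PCDH9 lower (4.1% of all genes were). The libraries of clone 1 and wild type did not overlap for 10 of the 34 (29.4%), beside 29.6% of all tested genes. The median log2 fold change of the 34 was 0.03, and that of all tested genes was -0.02.

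In clone 2 against wild type, 3 of the 34 were called (8.82%), beside 5.96% of all tested genes. PCDHB2, PCDHB6 and PCDH9 were lower (2.75% of all genes were) and none was higher (3.21% of all genes were). The libraries did not overlap for 11 of the 34 (32.4%), with 1 above and 10 below wild type, beside 26.0% of all tested genes. That 26.0% covers both directions together, so the split into above and below has no share of all genes beside it. The median log2 fold change was -0.33 for the 34 and 0.00 for all tested genes. Libraries with the same replicate number deviated together weakly in this comparison. A replicate block added the replicate number to the fit of all 9 libraries, so the clone 1 libraries entered it too. With the replicate block, 4 protocadherins were called lower (6.92% of all tested genes were) and 2699 genes were called in all, against 1008 genes without it. The added protocadherin was PCDHB7 (adjusted p = 0.0495 with the block, 0.0818 without it).

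More genes were called between the clones than between either clone and wild type, in this family and over all genes. With clone 2 set against clone 1, 7 of the 34 were called (20.6%), a smaller share than the 33.9% of all tested genes. PCDHA13 and PCDHGB1 were higher in clone 2 (19.8% of all genes were), and PCDHB2, PCDHB6, PCDHGB3, PCDHGA11 and PCDH12 were lower (14.1% of all genes were). The libraries did not overlap for 13 of the 34 (38.2%), beside 47.4% of all tested genes. Median log2 fold changes were -0.36 for the 34 and -0.01 for all tested genes. The plot of fold changes shows the 34 genes against wild type. Since both clones are set against the same wild-type libraries, their fold changes are given side by side and were not correlated.

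**Figure D3:**
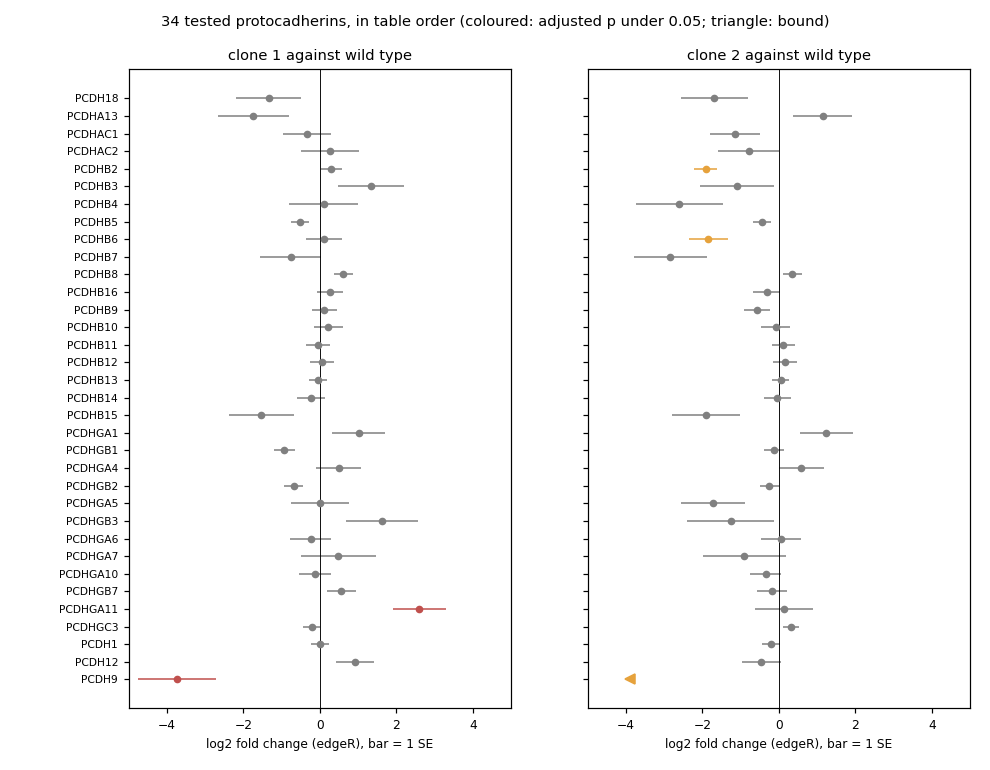
Log2 fold changes against wild type (points, edgeR; bars, 1 SE) of the 34 tested protocadherins in table order, for clone 1 (left panel) and clone 2 (right panel), coloured where the adjusted p was under 0.05; the triangle marks a bound, as PCDH9 had no count in clone 2. In clone 2 the points of PCDHB2 to PCDHB7 all lie left of 0, and the 9 points of PCDHB8 to PCDHB15 lie on both sides of 0, from -1.91 (PCDHB15) to 0.35 (PCDHB8).

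The alpha cluster contributed little RNA. Its 16 genes summed to 2.35 ± 0.11 CPM in clone 1, 2.87 ± 0.18 CPM in clone 2 and 3.26 ± 0.39 CPM in wild type (SD, n = 3 each), or 1.98%, 2.65% and 2.65% of the family's summed level. CPM here and below are scaled by edgeR's TMM factors. Summed levels get no test. PCDHA14 is annotated as a transcribed pseudogene in GENCODE release 29 and had no count.

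PCDHA13, an alpha protocadherin with its own variable exon, had 19, 15 and 20 counts in clone 2, against 2, 0 and 5 counts in clone 1, and 4, 9 and 14 counts in wild type. Every clone 2 library was above every library of clone 1 and wild type. The log2 fold change was 2.88 (SE 0.90, adjusted p = 0.0211) in clone 2 against clone 1. That call was lost when replicate 1 or 2 of clone 1 or replicate 3 of clone 2 was left out, with adjusted p-values up to 0.0797. Against wild type it was not called, at a log2 fold change of 1.14 (adjusted p = 0.391) in clone 2 and -1.74 (adjusted p = 0.286) in clone 1.

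PCDHAC1 and PCDHAC2, the C-type members at the end of the alpha array, were on in every wild-type library and in 2 of 3 clone 1 libraries each; in clone 2, PCDHAC1 was on in 1 library and PCDHAC2 in 0. PCDHAC1 had 22, 19 and 4 counts in clone 1, 6, 9 and 10 counts in clone 2, and 21, 16 and 24 counts in wild type. PCDHAC2 had 2, 18 and 19 counts in clone 1, 2, 9 and 8 counts in clone 2, and 11, 15 and 10 counts in wild type. For both genes the clone 2 libraries lay below all wild-type libraries and the clone 1 libraries overlapped wild type, and neither passed the test (clone 2 against wild type, adjusted p = 0.291 and 0.582). Among alpha genes too low to test, PCDHA10 had 26 counts over clone 2 (0, 9 and 17 by library) and 3 over wild type, a ratio of 9.60 with a 95% exact counting interval of 2.94 to 49.6, but 1 of the 3 clone 2 libraries had none. PCDHA11 had 2 counts over clone 1, 3 over clone 2 and 17 over wild type. PCDHA4 had 7 counts over clone 1, 2 over clone 2 and 17 over wild type. Such intervals cover counting error only, not the spread between libraries.

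The beta cluster held 44.6% of the family's summed level in clone 1, 38.3% in clone 2 and 41.6% in wild type, and the gamma cluster 29.1%, 37.3% and 32.2% in the same order. In 2 of the 3 clone 2 libraries the gamma sum was above the beta sum. The beta cluster summed to 53.0 ± 4.89 CPM in clone 1, 41.4 ± 2.47 CPM in clone 2 and 51.2 ± 2.99 CPM in wild type (SD, n = 3 each), and the clone 2 libraries lay below all others. Of 15 tested beta genes, none was called in clone 1 (5.51% of all tested genes were), and PCDHB2 and PCDHB6 were called lower in clone 2 (2.75% of all tested genes were). PCDHB1 had no count in any library.

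PCDHB2 had the smallest adjusted p of the family. It had 24, 19 and 26 counts in clone 2, against 112, 98 and 115 counts in clone 1, and 95, 105 and 93 counts in wild type. Its level was 1.21 ± 0.28 CPM in clone 2, 5.61 ± 0.88 CPM in clone 1 and 4.57 ± 0.12 CPM in wild type (SD, n = 3 each). All 3 clone 2 libraries were low, and those of clone 1 overlapped wild type. The log2 fold change was -1.92 (SE 0.30, adjusted p = 0.00199) in clone 2 against wild type and -2.22 (SE 0.31, adjusted p = 0.000126) in clone 2 against clone 1, but 0.29 (SE 0.28, adjusted p = 0.566) in clone 1 against wild type. Both calls were kept in all 9 fits that left out 1 library. In bulk RNA, fewer cells that express a gene and less RNA per cell cannot be told apart.

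PCDHB6 had 10, 18 and 12 counts in clone 2, against 87, 49 and 22 counts in clone 1, and 42, 37 and 77 counts in wild type. The clone 2 libraries lay below the rest, and the other groups varied widely. Clone 2 was below wild type by a log2 fold change of -1.84 (SE 0.52, adjusted p = 0.0471). That call was kept in 3 of the 9 fits that left out 1 library, with adjusted p-values up to 0.17 in the others, and was lost in the fit of clone 2 and wild type alone (adjusted p = 0.0669). Relative to clone 1, the log2 fold change of clone 2 was -1.96 (SE 0.52, adjusted p = 0.00927), and leaving out replicate 1 of clone 1 ended that call (adjusted p = 0.0721).

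PCDHB2 and PCDHB6 lie at the start of the beta array, and their neighbours there also had lower values in clone 2. The genes PCDHB2 to PCDHB7, in the order of the chromosome, summed to 8.77 ± 0.86 CPM in clone 2, 16.5 ± 2.96 CPM in clone 1 and 17.6 ± 1.32 CPM in wild type. All 6 had a log2 fold change below 0 in clone 2 against wild type, from -2.84 to -0.46, with a median of -1.88. The 9 genes from PCDHB8 to PCDHB15 summed to 32.7 ± 1.86 CPM in clone 2, 36.5 ± 4.28 CPM in clone 1 and 33.6 ± 2.23 CPM in wild type, with a median log2 fold change of -0.04 in clone 2 against wild type and no call. Of these 9 genes, 5 were below 0 in clone 2, down to -1.91 for PCDHB15. The place of this split was chosen after the values were seen, so it is a description with no test.

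Within the first stretch PCDHB5 was the most abundant gene, with 97, 127 and 157 counts in clone 2, 149, 97 and 117 counts in clone 1, and 175, 207 and 192 counts in wild type. Both clones lay below wild type in every library, at a log2 fold change of -0.52 (adjusted p = 0.214) in clone 1 and -0.46 (adjusted p = 0.249) in clone 2, and neither passed the test. PCDHB7 had 3, 2 and 0 counts in clone 2, 10, 8 and 5 counts in clone 1, and 17, 22 and 5 counts in wild type. PCDHB3 had 0, 1 and 11 counts in clone 2, 16, 21 and 27 counts in clone 1, and 16, 10 and 2 counts in wild type. PCDHB4 had 0, 4 and 0 counts in clone 2, 4, 14 and 10 counts in clone 1, and 2, 16 and 11 counts in wild type. These last 3 genes are low enough for single libraries to set the picture.

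In the second stretch, PCDHB8 is the first gene and PCDHB13 one of the most abundant. PCDHB8 had 142, 173 and 117 counts in clone 1, 124, 131 and 95 counts in clone 2, and 94, 112 and 104 counts in wild type. PCDHB13 had 118, 120 and 149 counts in clone 1, 122, 138 and 150 counts in clone 2, and 132, 157 and 153 counts in wild type. Scaled clone 1 levels of PCDHB8 lay above wild type in every library without passing the test (log2 fold change 0.61, adjusted p = 0.167), and those of PCDHB13 overlapped among all 3 groups. Replicate 1 of clone 2 stood apart for several genes here: PCDHB16 had 23 counts in it and 87 and 92 in the other libraries of clone 2, PCDHB9 had 26 against 69 and 75, and PCDHB14 had 26 against 65 and 83. PCDHB15, the last gene of the array, had 9, 1 and 3 counts in clone 2, 11, 4 and 3 counts in clone 1, and 20, 34 and 6 counts in wild type. Its groups overlapped and it did not pass the test in clone 2 against wild type (log2 fold change -1.91, SE 0.88, adjusted p = 0.197). Replicate 1 of clone 2 also had the lowest TMM factor of the 9, at 0.861.

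The bases before PCDHB2 and PCDHB8 are shown because the first of these beta genes was called lower in clone 2 and the second was not called. They come from RefSeq (GRCh38.p14), cover 250 bases up to the annotated start, and have CGCT, the core of the sequence element conserved among clustered protocadherin promoters, in capitals on either strand (CGCT or AGCG).
PCDHB2, chr5:141094365-141094614, plus strand: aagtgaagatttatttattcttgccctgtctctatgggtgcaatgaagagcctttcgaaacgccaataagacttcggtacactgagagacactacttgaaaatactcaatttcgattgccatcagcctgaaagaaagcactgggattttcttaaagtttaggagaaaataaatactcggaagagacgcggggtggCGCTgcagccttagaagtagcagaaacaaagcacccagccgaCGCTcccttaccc
PCDHB8, chr5:141177540-141177789, plus strand: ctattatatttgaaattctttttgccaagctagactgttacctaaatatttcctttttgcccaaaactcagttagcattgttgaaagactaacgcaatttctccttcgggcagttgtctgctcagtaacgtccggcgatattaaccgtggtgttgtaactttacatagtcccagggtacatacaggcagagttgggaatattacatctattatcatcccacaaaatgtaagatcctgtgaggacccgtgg
PCDHB2 has 2 matches before its start. PCDHB8 has none there, and its 1 match in the RefSeq window lies in the 50 bases after the start.

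Letters of this kind were counted in windows from 250 bases before to 50 after each RefSeq start, and 57 of the 66 genes had such a window. CGCT on either strand was found in 51 of the 52 windows of clustered genes (98.1%), beside 70.0% of 35116 windows of all genes. The clustered windows had a median GC content of 40.7%, beside 58.7% in all windows. A CTCF core, searched on both strands as CCA, any 2 bases, AG, any 2 bases and GGC, was found in 1.92% of the clustered windows and 2.41% of all windows, and TATAAA on both strands in 11.5% of each. Clustered genes that were on in all 9 libraries had CGCT in 16 of 16 windows. A match is a description of the letters and not evidence of a bound site.

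**Figure D4:**
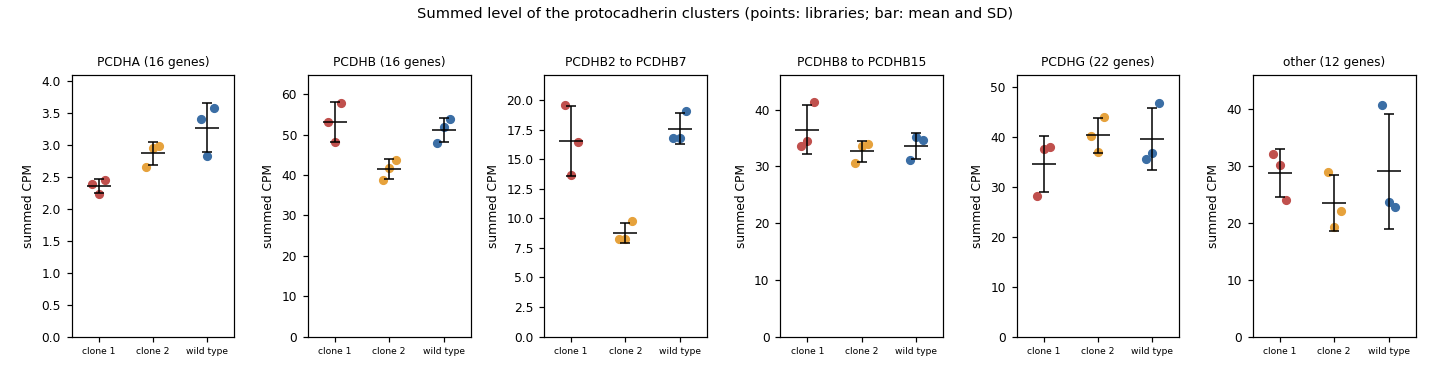
Summed CPM (TMM-scaled) of the alpha, beta and gamma clusters, of the beta stretches PCDHB2 to PCDHB7 and PCDHB8 to PCDHB15, and of the 12 other protocadherins, in clone 1, clone 2 and wild type (points, libraries; bars, mean and SD). PCDHB2 to PCDHB7 lie at 8.77 ± 0.86 CPM in clone 2, below every library of clone 1 and wild type, and the gamma cluster overlaps in all 3 groups.

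The gamma cluster summed to 34.6 ± 5.55 CPM in clone 1, 40.3 ± 3.50 CPM in clone 2 and 39.6 ± 6.17 CPM in wild type (SD, n = 3 each), within the spread between libraries. Each gamma gene shares exons with the 21 others at its 3′ end, and each alpha coding gene shares exons with at least 14 others. No source used here says how reads on such shared exons were assigned, and a count of 1 alpha or gamma gene is uncertain in that respect. Of 12 tested gamma genes, PCDHGA11 was called higher in clone 1 (1.41% of all tested genes were) and none was called in clone 2 (5.96% were).

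PCDHGA11 had 23, 49 and 20 counts in clone 1, 3, 11 and 2 counts in clone 2, and 6, 5 and 5 counts in wild type. Every clone 1 library was above every library of the other groups. It was higher in clone 1 than in wild type by a log2 fold change of 2.60 (SE 0.69, adjusted p = 0.0396). This call was kept only in the 3 fits that left out a clone 2 library, and it was lost on leaving out any 1 library of clone 1 or wild type, with adjusted p-values up to 0.175. Between the clones, clone 2 was lower by a log2 fold change of -2.47 (SE 0.69, adjusted p = 0.0124), a call lost without replicate 2 of clone 1 or replicate 3 of clone 2 (adjusted p up to 0.0781). Clone 2 did not differ detectably from wild type (log2 fold change 0.12, adjusted p = 0.941).

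PCDHGC3, a C-type gamma gene that is expressed in many tissues, was the most abundant gamma gene. It had 335, 291 and 367 counts in clone 2, against 203, 271 and 226 counts in clone 1, and 268, 262 and 355 counts in wild type. Scaled levels in clone 2 lay above those in clone 1 in every library, without passing the test (log2 fold change 0.54, SE 0.21, adjusted p = 0.0602). Neither clone was called against wild type (adjusted p = 0.576 in clone 1 and 0.382 in clone 2). The bases before these gamma genes are printed because PCDHGA11 differed between groups and PCDHGC3 was on throughout. CGCT and AGCG are in capitals.
PCDHGA11, chr5:141420801-141421050, plus strand: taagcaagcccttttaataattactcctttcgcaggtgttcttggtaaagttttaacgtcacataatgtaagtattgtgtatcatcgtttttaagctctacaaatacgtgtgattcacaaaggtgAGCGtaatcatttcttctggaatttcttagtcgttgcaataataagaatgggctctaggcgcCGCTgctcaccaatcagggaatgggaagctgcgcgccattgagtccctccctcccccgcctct
PCDHGC3, chr5:141475716-141475965, plus strand: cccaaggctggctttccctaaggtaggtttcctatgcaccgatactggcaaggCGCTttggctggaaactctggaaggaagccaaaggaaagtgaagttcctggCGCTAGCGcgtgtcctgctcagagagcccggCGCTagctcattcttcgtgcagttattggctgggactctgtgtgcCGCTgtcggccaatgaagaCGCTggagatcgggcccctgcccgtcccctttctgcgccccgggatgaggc
PCDHGA11 holds 1 CGCT and 1 AGCG before its start, while PCDHGC3 holds 5 CGCT and 1 AGCG.

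PCDHGB1 had 70, 64 and 45 counts in clone 1, 80, 123 and 110 counts in clone 2, and 93, 138 and 144 counts in wild type. Clone 1 was lowest and did not overlap the other groups once scaled. The log2 fold change was 0.81 (SE 0.28, adjusted p = 0.0329) in clone 2 against clone 1, a call kept in 4 of the 9 fits that left out 1 library (adjusted p up to 0.125) and lost without a filter on low counts (adjusted p = 0.0724). In clone 1 against wild type it was -0.94 (SE 0.28, adjusted p = 0.0586). Its neighbour PCDHGB2 had 86, 166 and 125 counts in clone 1, 116, 173 and 223 counts in clone 2, and 204, 219 and 239 counts in wild type, and was not called in clone 1 either (log2 fold change -0.69, adjusted p = 0.114).

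PCDHGB3 had 0, 0 and 6 counts in clone 2, 17, 10 and 18 counts in clone 1, and 1, 6 and 9 counts in wild type. Clone 1 was highest and did not overlap the other groups. The log2 fold change was -2.88 (SE 1.06, adjusted p = 0.0454) in clone 2 against clone 1, a call kept in 1 of the 9 fits that left out 1 library (adjusted p up to 0.139). Several gamma genes were too low to test, and single libraries carried much of their counts. PCDHGA12 had 0 counts over clone 1, 1 over clone 2 and 19 over wild type (2, 8 and 9 by library). PCDHGA8 had 26 counts over clone 1 (2, 19 and 5), 10 over clone 2 (6, 0 and 4) and 1 over wild type. PCDHGA3 had 4 counts over clone 1 (0, 0 and 4), 18 over clone 2 (11, 5 and 2) and 0 over wild type. PCDHGA12 was thus at least 5.76-fold lower in clone 1, with a group total of 0 taken as 3 counts, and PCDHGA3 at least 6.65-fold higher in clone 2. These bounds cover the group at 0 only. They take the counts of the other group as exact and leave out the spread between libraries. PCDHGA8 in clone 1 gave a ratio of 28.6 with a 95% exact counting interval of 4.70 to 1172, which rests largely on replicate 2.

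Outside the clusters, PCDH1, PCDH9, PCDH12 and PCDH18 passed the filter. PCDH1, an adhesion protein of epithelial cells, carried most of this group's RNA. It had 533, 575 and 384 counts in clone 1, 459, 358 and 433 counts in clone 2, and 762, 469 and 391 counts in wild type. The groups overlapped, with log2 fold changes of 0.00 (SE 0.24, adjusted p = 0.997) in clone 1 and -0.21 (SE 0.24, adjusted p = 0.643) in clone 2.

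PCDH9, a large protocadherin on chromosome 13 known mainly from brain, was the only protocadherin called in both clones against wild type. It had 2, 0 and 1 counts in clone 1, 0, 0 and 0 counts in clone 2, and 12, 18 and 19 counts in wild type. Every library of each clone was below every wild-type library. With 3 counts over clone 1 and 49 over wild type, it was lower in clone 1 by a ratio of 14.9 (95% exact counting interval 4.79 to 74.5, adjusted p = 0.047). With no count in clone 2 it was at least 14.7-fold lower there, the same 3-count floor being used (adjusted p = 0.0154). That bound again takes the wild-type counts as exact. The clone 2 call was kept in 7 of the 9 fits that left out 1 library and was lost without replicate 3 of clone 2 or replicate 2 of wild type (adjusted p up to 0.073). The clone 1 call was kept in 1 of those 9 fits (adjusted p up to 0.219), and was lost without a filter on low counts (adjusted p = 0.0661). These calls share the wild-type libraries and are not independent of each other. The bases before PCDH9 are shown as those of the only gene on in wild type and off in both clones, with CGCT and AGCG in capitals.
PCDH9, chr13:67230337-67230586, minus strand: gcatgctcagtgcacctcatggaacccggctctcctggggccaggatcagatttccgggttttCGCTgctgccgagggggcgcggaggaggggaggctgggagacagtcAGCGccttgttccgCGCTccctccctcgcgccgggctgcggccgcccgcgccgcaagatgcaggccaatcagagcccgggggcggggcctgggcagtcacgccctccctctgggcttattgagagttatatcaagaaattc
It holds 2 CGCT and 1 AGCG before its start.

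PCDH12, an endothelial protocadherin, had 7, 32 and 31 counts in clone 2, 77, 56 and 44 counts in clone 1, and 40, 51 and 14 counts in wild type. Clone 1 lay above both other groups once scaled, and those overlapped each other. In clone 2 relative to clone 1 the log2 fold change was -1.37 (SE 0.50, adjusted p = 0.0442), a call kept in 3 of the 9 fits that left out 1 library (adjusted p up to 0.153). Its exons overlap those of RNF14, which had 1734 to 2705 counts in each library and was also called lower in clone 2 than in clone 1 (log2 fold change -0.37, adjusted p = 0.0432). The summed endothelial markers PECAM1, CDH5, KDR and VWF ran from 3.65 to 6.45 CPM over the libraries. PECAM1 ran from 1.80 to 5.23 CPM and KDR from 0.591 to 2.61 CPM, with CDH5 at or under 0.222 CPM and VWF at or under 0.332 CPM. The part of these markers in PCDH12 was not tested. PCDH18 had 11, 3 and 4 counts in clone 1, 4, 10 and 0 counts in clone 2, and 17, 18 and 16 counts in wild type. Both clones lay below wild type in every library, and neither passed the test (adjusted p = 0.375 in clone 1 and 0.252 in clone 2). PCDH15, a protocadherin of hair cells in the inner ear, was untested, with no count in either clone and 1, 4 and 11 counts in wild type. The plot of called genes shows the libraries of all 8 genes called in any comparison.

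**Figure D5:**
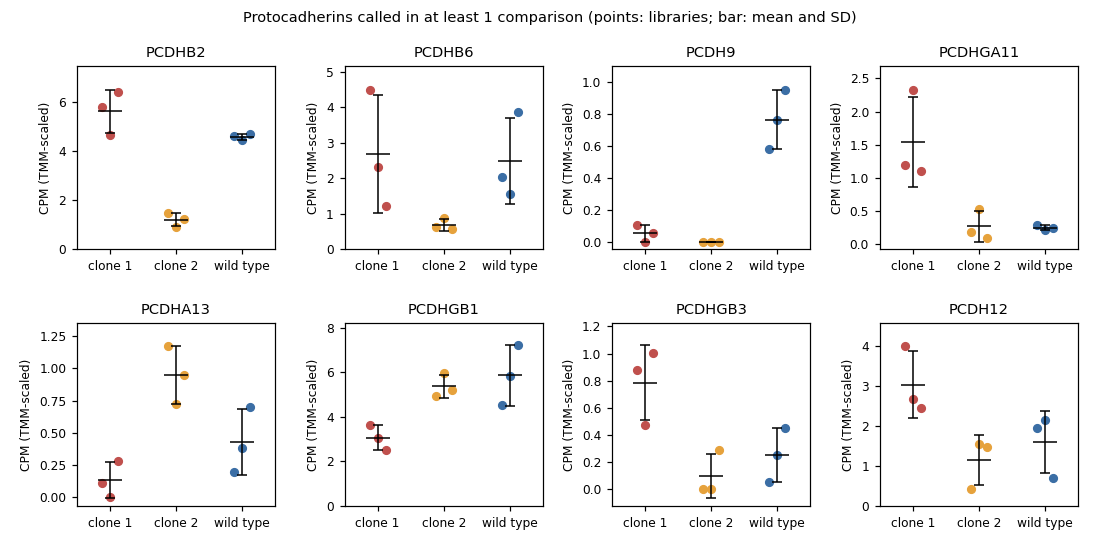
TMM-scaled CPM of the 8 protocadherins called in at least 1 comparison, in clone 1, clone 2 and wild type (points, libraries; bars, mean and SD of 3 libraries). PCDHB2 and PCDHB6 are lowest in clone 2, PCDH9 is near 0 in both clones and PCDHGA11 is highest in clone 1.

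The genes around the clusters gave a separate view of the same region, chr5:140786136-141512981. Of 37 tested genes within 1000 kb that are no protocadherins, 3 were called higher in clone 1 than in wild type (HBEGF, NDFIP1 and SPRY4, kept in 2 to 6 of the 9 fits that left out 1 library) and none lower, beside 1.41% and 4.1% of all tested genes, with a median log2 fold change of 0.30. In clone 2 against wild type, 4 were higher (ZMAT2, kept in all 9 such fits, and SLC35A4, IK and DIAPH1, kept in 5 or 6) and CD14 was lower (log2 fold change -2.93, SE 0.58, adjusted p = 0.00938, kept in 8 of 9), beside 3.21% higher and 2.75% lower among all tested genes, with a median of 0.14. TAF7, a single-exon gene that lies between the beta and gamma arrays, was called in neither clone. With the replicate block, 10 of these 37 were higher and 2 lower than in wild type in clone 2, beside 9.03% higher and 6.92% lower among all tested genes.

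Regulators known from the clustered genes were read out next. Of 14 tested CTCF and cohesin genes, CTCF and SMC1A were called lower in clone 1 (4.1% of all tested genes were) and none was called in clone 2. CTCF was 41.5 ± 2.99 CPM in clone 1, 79.1 ± 7.99 CPM in clone 2 and 62.8 ± 14.2 CPM in wild type, a log2 fold change of -0.60 (adjusted p = 0.0398, kept in 4 of 9 fits that left out 1 library) in clone 1 and 0.33 (adjusted p = 0.21) in clone 2. SMC1A, a cohesin subunit, had -0.56 in clone 1 (adjusted p = 0.0491, kept in 3 of 9). RAD21, another cohesin subunit, was called in neither (log2 fold change -0.03 and 0.10). Between the clones, 9 of the 14 were higher in clone 2 and none lower, where 19.8% of all genes were higher. With the replicate block, 4 of the 14 (SMC1A, STAG1, WAPL and PDS5A) were called higher in clone 2 than in wild type (9.03% of all tested genes were).

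Of 23 tested genes of DNA and histone methylation, 4 were higher and 1 lower in clone 2 than in wild type, beside 3.21% and 2.75% of all tested genes. DNMT1, the maintenance DNA methyltransferase, was 440 ± 64.0 CPM in clone 2 and 264 ± 63.8 CPM in wild type (log2 fold change 0.74, adjusted p = 0.0271, kept in 6 of 9 fits that left out 1 library). UHRF1, which brings DNMT1 to replicating DNA, was 291 ± 24.0 CPM in clone 2 and 174 ± 30.9 CPM in wild type (log2 fold change 0.74, adjusted p = 0.0162, kept in 6 of 9). WIZ (0.56, adjusted p = 0.0317) and TRIM28 (0.63, adjusted p = 0.0429) were higher too (kept in 5 and 4 of 9), and TET2, which oxidises methylated cytosine, was lower (-0.72, adjusted p = 0.0471, kept in 2 of 9). The de novo enzymes DNMT3A and DNMT3B and the silencing factor SMCHD1 were called in neither clone against wild type, with adjusted p-values from 0.0842 to 0.725. With the replicate block, 6 of the 23 were higher and 2 lower in clone 2, beside 9.03% and 6.92% of all tested genes. In clone 1 the block called 1 higher and 2 lower, SMCHD1 among them, and 2322 of the 16921 genes in all. Between the clones, 10 of the 23 were higher in clone 2 and 1 lower, beside 19.8% and 14.1% of all tested genes. SMCHD1 was among those higher in clone 2 (log2 fold change 0.81, adjusted p = 0.00407, kept in all 9 fits that left out 1 library). Methylation itself was not measured.

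Intracellular partners of protocadherins gave 25 tested genes, such as the WAVE complex that their tails bind. None was called in clone 1. In clone 2, CYFIP2 (log2 fold change 1.02, adjusted p = 0.031) and WASF2 (0.62, adjusted p = 0.0355), both of the WAVE complex, were higher. PDCD10 was lower (-0.67, adjusted p = 0.0303), and each of these calls was kept in 4 to 6 of the 9 fits that left out 1 library. Over all tested genes, 1.41% were called higher and 4.1% lower in clone 1. In clone 2, 3.21% were called higher and 2.75% lower. These shares stand beside every list of this paragraph. Between the clones, 6 of the 25 partners were higher in clone 2 and 1 lower, beside 19.8% and 14.1% of all tested genes. Among 7 classical and type II cadherins, CDH24 was higher (0.68, adjusted p = 0.0394) and CDH4 lower (-0.78, adjusted p = 0.0276) in clone 1, while CDH11 was higher (0.68, adjusted p = 0.0313) in clone 2. CDH18 averaged 0.0158 CPM in clone 2 and 0.902 CPM in wild type (adjusted p = 0.016), and these cadherin calls were kept in 3 to 6 of the 9 fits. Of 16 other members of the cadherin superfamily none was called against wild type. With the replicate block, CELSR1 of this list was called lower in clone 2, as was PTK2B among the partners, and CDH4 was called higher. The block called 9.03% of all tested genes higher and 6.92% lower in clone 2. Of 7 catenins and relatives, CTNND1 was lower in clone 1 (-0.73, adjusted p = 0.0329, kept in 4 of 9) and none was called in clone 2, though the block called CTNNA1 and JUP higher there. Between the clones, 6 of the 7 catenins were higher in clone 2, where 19.8% of all tested genes were. Mitochondrial mRNA took 3.60 ± 1.31% of counts in clone 1, 1.21 ± 0.51% in clone 2 and 2.62 ± 1.01% in wild type, and its part in the differences between the clones was not tested.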

How the data were processed

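RNA-seq counts were available for all 9 libraries. Raw counts per gene were deposited by the authors as a pair of tables, each with wild type and 1 clone, and the file headers name gene coordinates and lengths. The submitters' processing notes list STAR, featureCounts, Subread and DESeq2 with the build GRCh38. Versions, the strand setting and the handling of reads on several genes are given nowhere in the sources used, so reads of a gene and of an antisense or near-identical partner cannot be told apart. All 3 wild-type columns held the same values in either table and entered once. Depth ran from 16890890 to 22456164 counts per library. No libraries of a group agreed within sampling noise.

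Counts were fitted with edgeR 4.0.16 in R 4.3.3 (TMM scaling, filterByExpr with a minimum count of 10, robust quasi-likelihood test, two-sided). One fit held all libraries of the 3 groups, which left 6 residual degrees of freedom. Benjamini-Hochberg adjustment ran over 16921 genes and a call needed an adjusted p under 0.05. The fit was tested on simulated data. CPM were computed from these counts and TMM factors. Gene types came from GENCODE release 29 and promoter windows from RefSeq, matched by symbol. Alternatives were RLE size factors, no filter, DESeq2 1.42.0, the replicate block, fits of 6 libraries and leaving out each library.

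Replicate numbers come from the sample titles, which do not say what they mark. Deviations from the group means of same-numbered libraries correlated at 0.22, 0.27 and 0.25 between clone 2 and wild type, so these numbers were taken to pair libraries there.

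The protocadherins and the gene lists were chosen with earlier results of these data known. Protocadherins with at least 10 counts in a library could be named. From each list, up to 4 genes called against wild type were named, by smallest adjusted p, with CTCF, RAD21, SMCHD1 and the DNA methyltransferases whatever their result. PCDHA11, PCDHGA12, TET2, TRIM28 and the genes off in every library are named outside this rule, after their values were seen. Some listed genes are not reported here.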

Additional observations from a re-analysis of the deposited data

Results flagged for a closer look

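In all, 7 protocadherins differed between the clones in the test of clone 2 against clone 1 itself (edgeR's quasi-likelihood test, Benjamini-Hochberg adjusted p under 0.05), so that their changes from wild type were not the same in both clones. The log2 difference, clone 2 minus clone 1, was 2.88 for PCDHA13 and 0.81 for PCDHGB1, which were higher in clone 2. It was -2.22 for PCDHB2, -1.96 for PCDHB6, -2.88 for PCDHGB3, -2.47 for PCDHGA11 and -1.37 for PCDH12, which were lower in clone 2. Of these, PCDHB2 was called in all 9 fits that left out 1 library, and PCDHGB3 in 1. This share of the family (20.6%) was below that of all tested genes (33.9%).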

How the results depend on the processing

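Leaving out 1 library gave 0 to 2 called protocadherins in clone 1 against wild type, 1 to 3 in clone 2 against wild type and 2 to 7 in clone 2 against clone 1. In clone 1 against wild type, 1 was called with no filter on low counts and 4 with the replicate block, which added PCDHGB1 and PCDHGB2; DESeq2 called 3, adding PCDHGB1 (adjusted p = 0.0206). DESeq2 also added PCDHB7 in clone 2 against wild type (adjusted p = 0.0454). The block gave 10 in clone 2 against clone 1. Numbers did not pair the libraries in these 2 comparisons (same-number correlations 0.24, 0.08 and -0.10, and 0.22, -0.02 and 0.01), and in neither did every library correlate best with its own number. Beside PCDHB7, the block changed no other protocadherin call in clone 2 against wild type. Over all genes, clone 1 against wild type gave 1512 calls without the filter, 1479 with DESeq2, 2322 with the block and 200 to 1301 on leaving out 1 library, against 933. Clone 2 against wild type gave 1663, 1818, 2699 and 237 to 1584 in the same order, and 416 in the fit of 6 libraries, against 1008.

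Over the fits that left out 1 library, no called value turned direction, while 13, 11 and 10 of the uncalled protocadherins did (clone 1 against wild type, clone 2 against wild type, and clone 2 against clone 1). Among the 8 genes called in any comparison, directions turned for 3 uncalled values. PCDHB6 in clone 1 against wild type ranged from -0.48 to 0.59 over the fits that left out 1 library, with -0.48 lacking clone 1 replicate 1, -0.018 lacking wild-type replicate 1 and -0.12 lacking wild-type replicate 2. PCDHGB1 in clone 2 against wild type ranged from -0.28 to 0.028, with 0.028 lacking wild-type replicate 3. PCDHGA11 in clone 2 against wild type ranged from -0.87 (lacking clone 2 replicate 2) to 0.54, with -0.014 lacking wild-type replicate 2, and had -0.061 with the replicate block. The cause was not tested. Scaling by raw column totals moved all clone 2 values by -0.14 on the log2 scale relative to wild type, and gave summed levels of 2.48 CPM (PCDHA, clone 1), 2.67 CPM (PCDHA, clone 2) and 38.5 CPM (PCDHB, clone 2). With at least 5 counts, or at least 1 CPM, in place of 10 counts, 27 or 19 genes were on in every clone 1 library, 23 or 14 in clone 2 and 28 or 17 in wild type.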
